A study of Mus musculus with 8 samples.

Results

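Chromatin accessibility was examined around 9 genes of scavenging and lipid uptake, Cd36, Lpl, Msr1, Marco, Scarb1, Olr1, Vldlr, Mrc1 and Cd163, in mouse alveolar macrophages (AMs), the resident macrophages of the airspaces. The question was where regions of open chromatin around these genes differed when AMs lacked retinoid X receptors. A region was a stretch covered by an ATAC-seq peak in at least 1 library that touched a gene body or its 20 kb flanks, with peaks of different libraries merged where they shared a base. The genes had 96 such regions out of 82424 in the genome, and they were numbered for each gene by position on the chromosome. ATAC-seq uses a transposase that inserts sequencing adapters into accessible DNA. AMs were sorted from adult mice of 2 groups of 4 libraries each. KO mice (CD11cCre+ Rxrab fl/fl) carried floxed alleles of both Rxra and Rxrb and a Cre driven by the CD11c promoter, which is active in AMs and also in dendritic cells. WT mice (CD11cCre- Rxrab fl/fl) carried the same floxed alleles without Cre. The libraries are named by genotype and the replicate in their titles, KO 1_2, 1_3, 2 and 3, and WT 1_2, 1_3, 3 and 4. No source used here says whether 1_2 and 1_3 came from separate animals, so p-values measure the spread between libraries, which may be partly technical.

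Scavenger receptors are surface proteins that bind modified lipoproteins, bacteria, particles and dying cells. MSR1 and MARCO belong to class A, CD36 and SR-BI (the product of Scarb1) to class B, and OLR1 is a lectin-like receptor for oxidised low density lipoprotein. Lipoprotein lipase, encoded by Lpl, releases fatty acids from triglyceride-rich lipoproteins, and the VLDL receptor takes such particles up. MRC1 is the mannose receptor and CD163 the receptor for haemoglobin bound to haptoglobin. AMs clear surfactant lipid and protein from the air spaces, and MARCO, CD36 and MRC1 are well known on their surface. Retinoid X receptors bind DNA as partners of other nuclear receptors, among them PPARγ, known to act through repeats of AGGTCA with 1 base between them (DR1), and LXR, known to act through the same repeats 4 bases apart (DR4). Cd36 and Lpl are textbook targets of PPARγ.

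The sequences of 12 regions on which the results below turn are printed here, each the 151 bases centred on the summit of the strongest peak, from the plus strand of GRCm38 (mm10). Of these, 11 had fewer tags in KO and Marco_2 had a peak in every WT library and in no KO library. Capitals mark a match to DR1 (at most 2 mismatches) or to the AP-1 motif TGANTCA (exact), and sequences without capitals held neither within this stretch. The same 2 motifs, DR4 and the PU.1 motif GAGGAAGT were searched on both strands.
Marco_12 (chr1:120524294-120524444): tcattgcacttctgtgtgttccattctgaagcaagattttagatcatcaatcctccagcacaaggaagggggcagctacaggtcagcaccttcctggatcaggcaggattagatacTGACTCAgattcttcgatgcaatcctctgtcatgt
Marco_11 (chr1:120522576-120522726): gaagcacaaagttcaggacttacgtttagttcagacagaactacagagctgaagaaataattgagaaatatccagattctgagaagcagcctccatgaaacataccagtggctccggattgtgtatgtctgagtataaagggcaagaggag
Marco_10 (chr1:120519515-120519665): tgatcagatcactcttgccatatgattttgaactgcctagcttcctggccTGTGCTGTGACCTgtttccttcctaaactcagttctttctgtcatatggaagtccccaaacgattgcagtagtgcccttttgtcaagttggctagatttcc
Marco_2 (chr1:120469053-120469203): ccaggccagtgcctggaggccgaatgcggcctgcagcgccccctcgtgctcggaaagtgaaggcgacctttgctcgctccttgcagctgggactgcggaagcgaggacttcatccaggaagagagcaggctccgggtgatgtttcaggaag
Lpl_4 (chr8:68908809-68908959): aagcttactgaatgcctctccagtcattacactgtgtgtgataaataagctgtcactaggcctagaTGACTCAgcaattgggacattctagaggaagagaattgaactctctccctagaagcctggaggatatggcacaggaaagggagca
Lpl_5 (chr8:68914643-68914793): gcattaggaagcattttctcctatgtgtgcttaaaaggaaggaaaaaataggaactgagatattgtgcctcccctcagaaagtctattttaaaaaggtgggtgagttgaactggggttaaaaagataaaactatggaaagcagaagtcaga
Msr1_2 (chr8:39610410-39610560): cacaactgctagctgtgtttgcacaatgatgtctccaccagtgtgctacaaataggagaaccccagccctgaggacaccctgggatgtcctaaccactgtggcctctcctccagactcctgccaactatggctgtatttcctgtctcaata
Cd36_5 (chr5:17835857-17836007): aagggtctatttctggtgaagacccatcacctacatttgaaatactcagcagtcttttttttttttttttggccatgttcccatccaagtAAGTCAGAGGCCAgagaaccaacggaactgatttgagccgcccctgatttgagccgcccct
Scarb1_11 (chr5:125339175-125339325): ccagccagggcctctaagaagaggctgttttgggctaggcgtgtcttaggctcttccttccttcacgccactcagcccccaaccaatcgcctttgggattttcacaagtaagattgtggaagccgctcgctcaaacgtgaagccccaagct
Scarb1_13 (chr5:125348182-125348332): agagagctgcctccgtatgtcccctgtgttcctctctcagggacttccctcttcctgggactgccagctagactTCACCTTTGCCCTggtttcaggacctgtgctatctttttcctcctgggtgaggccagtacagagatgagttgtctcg
Olr1_4 (chr6:129476951-129477101): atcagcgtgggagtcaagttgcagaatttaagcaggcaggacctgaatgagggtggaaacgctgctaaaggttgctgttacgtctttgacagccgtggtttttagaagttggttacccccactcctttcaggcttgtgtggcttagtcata
Mrc1_11 (chr2:14272234-14272384): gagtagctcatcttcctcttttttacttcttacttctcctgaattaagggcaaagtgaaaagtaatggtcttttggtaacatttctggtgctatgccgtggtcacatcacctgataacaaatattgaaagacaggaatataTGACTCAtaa

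Each peak list gave, for every peak, the fold enrichment and p-value at its summit, from which the whole number of overlapping tags (read ends extended to 200 bp) was worked back. Summit tags are therefore a measure of the height of a peak. They also vary with the library. Median summits held 51, 46, 44 and 40 tags in KO 1_2, 1_3, 2 and 3. In WT 1_2, 1_3, 3 and 4 they held 48, 53, 49 and 45. Unscaled tags can therefore separate the groups where scaled ones overlap. The lists held 60363 to 72484 peaks, the genome-wide background was 1.12 to 2.26 tags per 200 bp, and the smallest summit in a list held 6 to 9 tags, so a region without a peak was below the threshold of that library and not shown to be closed. Read totals are not in the lists. Of 18 regions at the targeted gene Rxra, 1 intronic region (chr2:27744546-27744950) held 38, 46, 38 and 42 tags in the WT libraries and had no peak in any KO library, and 13 had a peak in all 8. None of the 3 regions at Rxrb had this pattern. The position of the floxed part was not examined, so these values do not check the deletion itself. Of 9 AM markers, 7 had a promoter peak in all 8 libraries, and Chil3 and Krt79 had none. Promoter peaks of the 3 T cell and 3 B cell markers were absent from every library. Of the markers of other cells, Klrb1c (1 of 2 for NK cells), S100a8 (1 of 3 for neutrophils), Epcam (1 of 3 for epithelium), Pecam1 (1 of 3 for endothelium), Ly6c2 and Cx3cr1 (2 of 4 for monocytes or interstitial macrophages) had a promoter peak in all 8 libraries. Ncr1, S100a9, Ly6g, Sftpc, Sftpb and Cdh5 had none in any library, Kdr and C1qa had 1 in 1 WT library each, and Ccr2 in 1 KO and 1 WT library. The part of other cells in the results below was not tested.

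Where regions around these genes differed between genotypes, KO mostly had fewer tags. All 8 libraries had a peak at 68 of the 96 regions, which entered the test, a limma fit across all 47499 such regions of the genome on log2(tags + 0.5), with each library centred on its median and p-values adjusted over the genome (Benjamini-Hochberg, below 0.05). Summit tags were lower in KO at 13 of the 68 regions (19.1%), against 7.03% of all regions tested, and higher at 1 (1.47%), against 5.81%. The 13 lower regions lay at 7 genes, 3 at Marco, 3 at Lpl, 2 at Scarb1, 2 at Mrc1 and 1 each at Cd36, Olr1 and Msr1, which also had the region that was higher. Differences were below 0 at 51 of the 68 regions (75%), against 42.4% of all regions, and their median was -0.11 on the log2 scale, against 0.04. Regions of one locus share a gene and its surroundings, so they are not independent. With libraries scaled by their background tags instead of their medians, 8 of the 13 remained lower and none was higher, and the genome-wide calls moved from 3337 lower and 2759 higher to 1988 and 575. Without KO 3, 8 regions were lower and 0 higher, against 2835 lower and 1845 higher of 48090 genome-wide. Without KO 2 the higher region was lost. With regions in 2 or more libraries fitted and missing peaks set to the smallest summit, 7 of 88 were lower and 0 higher. Those 7 were 6 of the 13 and Marco_2, whose KO values were all filled in. Genome-wide, 2453 regions were lower and 2286 higher of 72711 under this setting. Leaving out Marco and Lpl, chosen after their values were seen, 7 of 55 regions were lower (12.7%), 69.1% were below 0 and the median was -0.083.

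**Figure D1:**
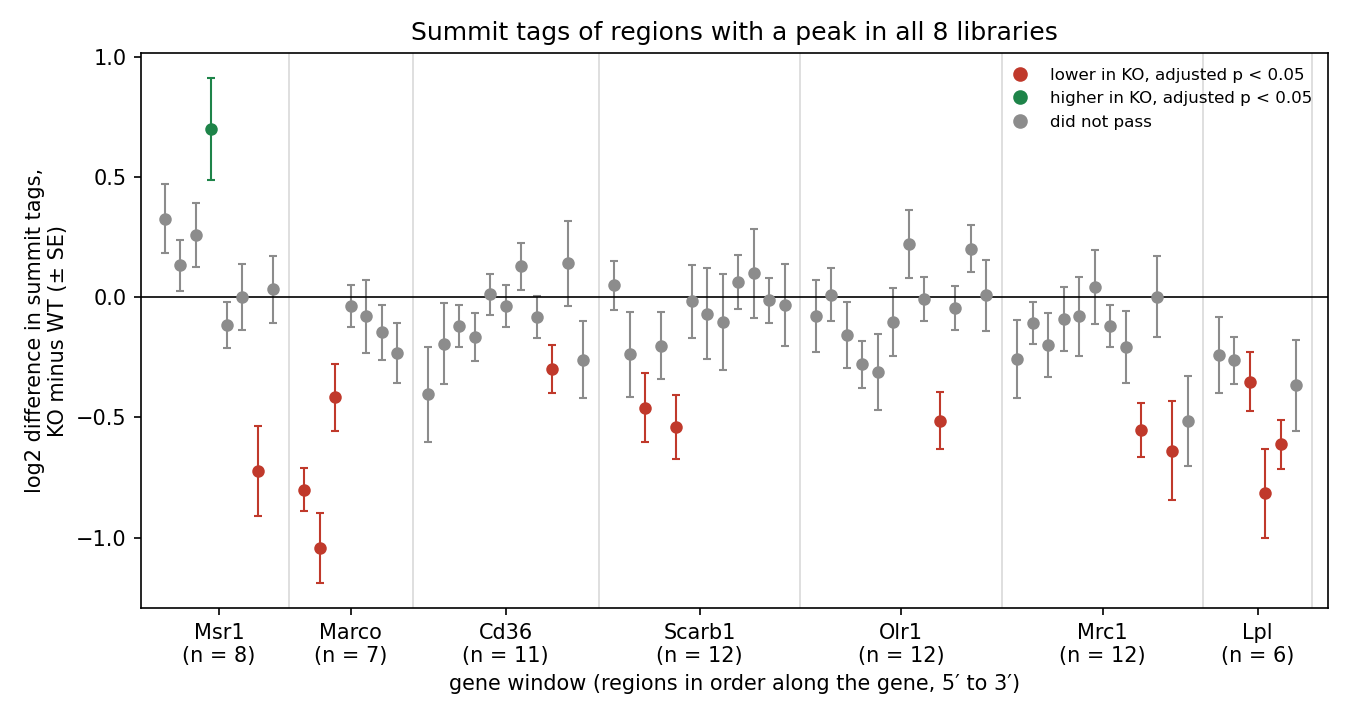
Each point is 1 region with a peak in all 8 libraries, ordered along its gene window from 5′ to 3′. The y axis gives the log2 difference in summit tags between 4 KO and 4 WT libraries with its standard error, in red where lower in KO, in green where higher and in grey where the test was not passed. All 7 Marco and all 6 Lpl regions lie below 0, with the lowest at -1.04 for Marco_11.

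Marco, the class A receptor for bacteria and inhaled particles, had the region with the largest difference of all 68. It had 12 regions, of which 7 were tested, and all 7 were below 0 with a median of -0.23. The farthest upstream, Marco_12 (chr1:120523994-120524665, intergenic, 19.3 kb before the gene), had 171, 151, 130 and 138 tags in KO 1_2, 1_3, 2 and 3 and 268, 327, 333 and 267 in WT 1_2, 1_3, 3 and 4. The highest KO library was below the lowest WT library, and on the scaled values KO had 42.6% fewer tags (log2 difference -0.80, SE 0.0892, adjusted p = 3.99e-09). Its neighbour Marco_11 (chr1:120522447-120522833, intergenic, 17.6 kb before the gene) had 47, 45, 35 and 34 tags in KO and 84, 97, 97 and 107 in WT. Here too the groups did not overlap, and KO had 51.5% fewer tags (-1.04, SE 0.146, adjusted p = 7.66e-07). Both passed under all 16 alternatives fitted. Marco_10 (chr1:120519430-120519812, 14.6 kb before the gene) had 61, 74, 45 and 40 tags in KO and 74, 100, 84 and 76 in WT. These groups met at 74 tags, and the smaller difference (-0.42, SE 0.140, adjusted p = 0.0401) did not pass without KO 1_2, KO 2, KO 3, WT 1_3, WT 3 or WT 4 (adjusted p from 0.0501 to 0.164).

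The lower tags at Marco were not shared by all its regions. Marco_9, 12.7 kb before the gene and next to the 3 regions above, had 170, 183, 153 and 139 tags in KO and 185, 232, 196 and 158 in WT, a difference of -0.04 (adjusted p = 0.83). Marco_6, which covers the start of the gene and part of its 5′ UTR (chr1:120504498-120505082), had 46, 51, 42 and 42 tags in KO and 57, 75, 61 and 36 in WT. The groups overlapped and the difference was -0.08 (SE 0.152, adjusted p = 0.787). The intronic Marco_4 and the downstream Marco_1 differed by -0.15 and -0.23 and did not pass. On the other side of the gene, 5.41 kb past its 3′ end, Marco_2 (chr1:120468961-120469239, intergenic) had 24, 28, 23 and 21 tags in WT and no peak in any KO library. This all-or-none pattern was found at 0.82% of the 72711 regions found in 2 or more libraries, and at 1 of the 88 such regions of these genes. The reverse, a peak in every KO and no WT library, was found at none of the 88 and at 0.285% of all.

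**Figure D2:**
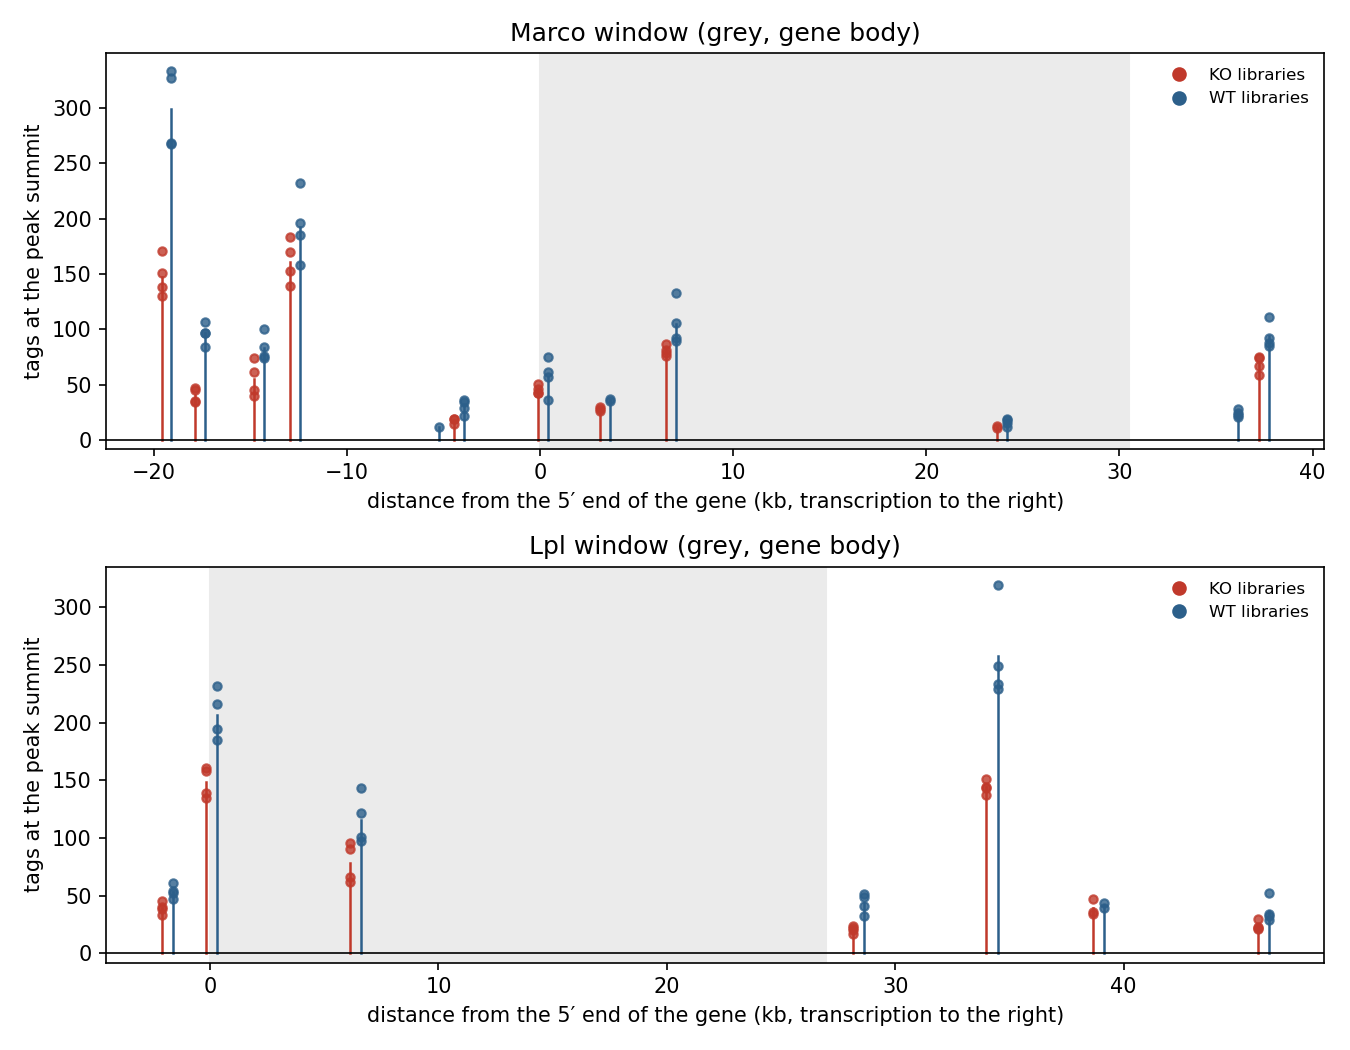
Unscaled summit tags of every library (points; red KO, blue WT) and group means over the libraries with a peak (vertical lines) against the distance of the region from the 5′ end of the gene in kb, for the Marco window above and the Lpl window below, with gene bodies in grey. The gap between unscaled tags is wide at the 2 regions farthest upstream of Marco, 34 to 47 against 84 to 107 tags at Marco_11. It is narrower at Marco_1 and Marco_4, where the unscaled groups also do not overlap. After scaling the groups overlapped at Marco_1 and Marco_4, and neither region passed. At Lpl the widest gap between unscaled tags lies past the 3′ end, at Lpl_5. Lpl_4, also past the 3′ end, has a narrower gap here but the largest log2 difference of this gene.

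Lpl, the lipase of lipoprotein triglyceride, had lower tags at 3 of its 6 tested regions, and all 6 were below 0 with a median of -0.36. The difference was largest past the 3′ end. Lpl_5 (chr8:68914438-68915431, intergenic, 7.27 kb past the gene) had 151, 143, 137 and 144 tags in KO and 229, 249, 319 and 233 in WT. The groups did not overlap, and KO had 34.6% fewer tags (-0.61, SE 0.101, adjusted p = 1.63e-05). Lpl_4 (chr8:68908068-68909047, 1.44 kb past the gene) was a smaller peak, with 24, 22, 20 and 17 tags in KO and 32, 51, 49 and 41 in WT. The groups did not overlap (-0.82, SE 0.184, adjusted p = 0.00147), but the summits of this wide region lay up to 702 bases apart between libraries, so it was left out of the fit limited to summits within 200 bases of each other. The intronic Lpl_3 (chr8:68886648-68887144) had 96, 90, 66 and 62 tags in KO and 101, 122, 143 and 97 in WT. The groups were 1 tag apart unscaled and overlapped after scaling. Its difference (-0.35, SE 0.122, adjusted p = 0.0471) did not pass without KO 2, KO 3, WT 3 or WT 4 (adjusted p from 0.0725 to 0.233). Lpl_2 covers the start of the gene (chr8:68880284-68880839) and had 158, 139, 161 and 135 tags in KO and 194, 216, 232 and 185 in WT. The unscaled groups did not overlap, yet the scaled ones did, and the difference of -0.26 (SE 0.0968, adjusted p = 0.0632) missed the threshold. It passed without KO 2 or WT 1_3 (adjusted p = 0.0405 and 0.0162) and with quantile normalisation (0.0212).

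Msr1, the class A scavenger receptor for modified lipoproteins, was the gene with a region in each direction. Each of its 8 regions was found in every library, and 3 were below 0 (median 0.08). Msr1_2, in an intron 32.1 kb from the nearest Msr1 start (chr8:39610260-39610648), had 30, 18, 32 and 36 tags in KO and 57, 62, 52 and 47 in WT. Every KO library was below every WT library (-0.72, SE 0.188, adjusted p = 0.00636), and without KO 1_3, the lowest, the difference was -0.49 (adjusted p = 0.0593). Msr1_5, at the start of the gene (chr8:39642543-39642889), was a low peak with 25, 26, 36 and 37 tags in KO and 21, 25, 32 and 13 in WT. The groups overlapped both unscaled and scaled, and the difference of 0.70 (SE 0.211, adjusted p = 0.0203) fell short without KO 2, KO 3 or WT 4 (adjusted p from 0.0776 to 0.111). The 3 regions upstream of it, Msr1_6 to Msr1_8, differed by 0.26, 0.13 and 0.33 and did not pass.

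**Figure D3:**
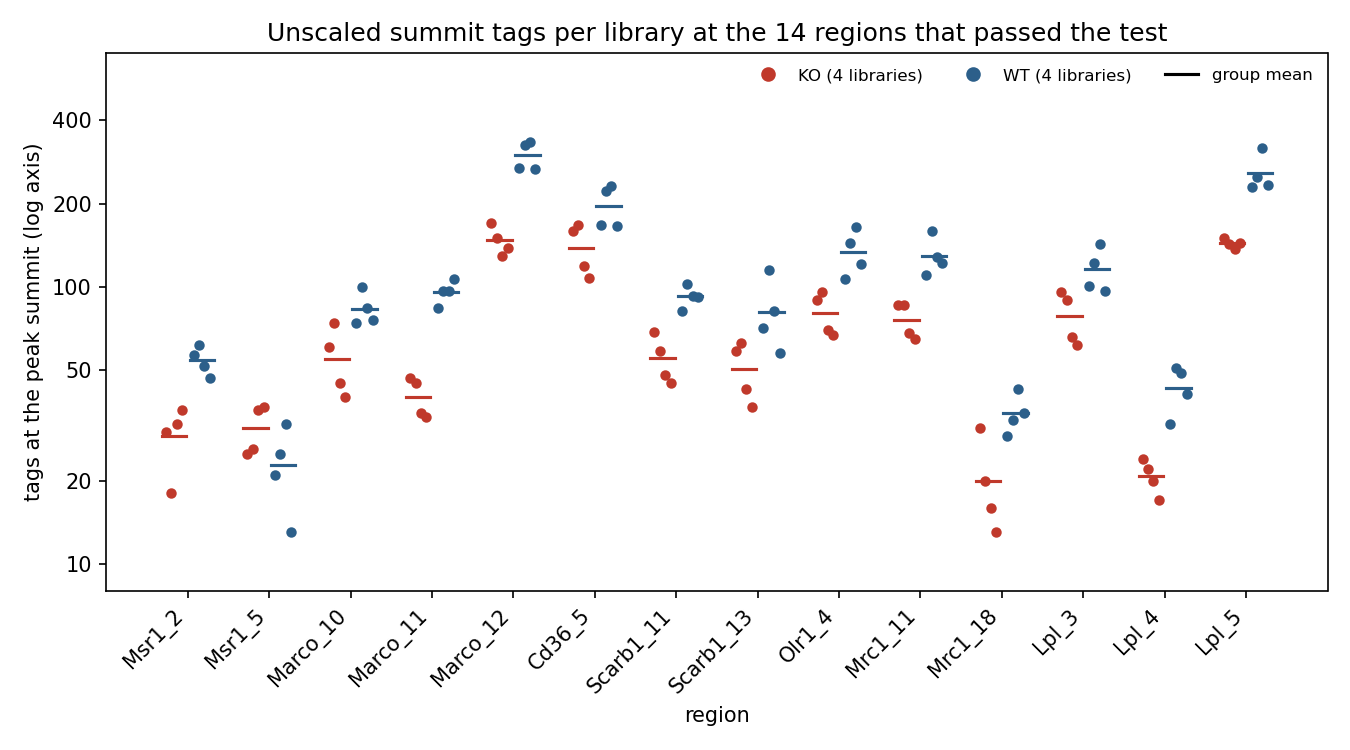
Unscaled tags at the peak summit in each of 4 KO (red) and 4 WT (blue) libraries on a log axis, with group means as bars, at the 14 regions that passed the test. The libraries of the genotypes are separate at Marco_11, Marco_12, Lpl_4, Lpl_5, Msr1_2, Scarb1_11, Olr1_4, Mrc1_11 and, by 1 tag (96 against 97), Lpl_3, and overlap or meet at the others. After scaling the groups overlapped at Lpl_3 and were separate at Scarb1_13.

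Cd36, the class B receptor for fatty acids and oxidised lipoproteins, showed small differences despite many strong peaks. It had 15 regions over its long gene body and flanks, of which 11 were tested and 8 were below 0 (median -0.12, range -0.40 to 0.14). The region that passed, Cd36_5 (chr5:17835563-17836204, 0.215 kb from a start of Cd36 transcripts inside the gene), had 160, 168, 119 and 108 tags in KO and 168, 223, 231 and 166 in WT. The groups met at 168 and 166 tags. KO had 18.7% fewer (-0.30, SE 0.10, adjusted p = 0.0398), and the call was lost without KO 2, KO 3, WT 3 or WT 4 (adjusted p from 0.062 to 0.194). The nearby intronic regions Cd36_6, with 194 to 246 tags in KO and 200 to 320 in WT, and Cd36_8 differed by -0.08 and 0.13. Cd36_15, upstream of the gene and 4.97 kb from its nearest start, had the largest difference at this locus but few tags, 19, 17, 29 and 19 in KO and 31, 40, 33 and 25 in WT, and did not pass (-0.40, SE 0.198, adjusted p = 0.181).

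Scarb1, whose product SR-BI exchanges cholesterol with high density lipoprotein, had 12 tested regions, 9 of them below 0 with a median of -0.05. Of the 2 that passed, Scarb1_11 lies in an intron 1.84 kb into the gene (chr5:125339086-125339721) and had 69, 59, 48 and 45 tags in KO and 82, 103, 93 and 92 in WT. The groups did not overlap and the call held under all 16 alternatives (-0.54, SE 0.133, adjusted p = 0.00372). Scarb1_13, 7.16 kb before the gene (chr5:125348063-125348809), had 59, 63, 43 and 37 tags in KO and 71, 115, 82 and 58 in WT. It differed by -0.46 (SE 0.143, adjusted p = 0.0245), and without KO 2, KO 3, WT 1_3 or WT 3 it did not pass (adjusted p from 0.0598 to 0.114). Scarb1_12, at the start of the gene, lies between these 2 and had 73, 50, 61 and 45 tags in KO and 76, 88, 76 and 63 in WT. These groups overlapped, at a difference of -0.20 (SE 0.138, adjusted p = 0.366). The summits of Scarb1_12 lay up to 519 bases apart between libraries, so it was left out of the fit limited to summits within 200 bases.

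Olr1, the receptor for oxidised low density lipoprotein, had 12 tested regions, 8 of them below 0 with a median of -0.06. The region that passed was Olr1_4, an intergenic peak 8.22 kb past the 3′ end (chr6:129476838-129477193), with 90, 96, 70 and 67 tags in KO and 107, 144, 165 and 121 in WT. The groups did not overlap (-0.51, SE 0.118, adjusted p = 0.00189). Clec1a, which encodes another lectin-like receptor, has the nearest annotated start, 25.0 kb away, so its gene is not assigned by these data. Olr1_11, at the start of Olr1 (chr6:129506952-129507500), had 152, 135, 119 and 100 tags in KO and 157, 198, 200 and 155 in WT. The unscaled groups did not overlap, but the scaled ones did. The difference of -0.28 (SE 0.0989, adjusted p = 0.0521) was just outside the threshold, passing without KO 1_2, WT 1_2 or WT 1_3 (adjusted p from 0.0318 to 0.0475). It also passed with quantile normalisation (0.0227), a pseudocount of 5 (0.0447) and 1_2 and 1_3 counted as 1 sample (0.0287). It did not with background scaling (0.281), missing peaks filled in (0.2), summits within 200 bases (0.0615), merging at 100 shared bases (0.0522) or the replicate block (0.101). Immediately inside the threshold was Lpl_3 at 0.0471.

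Mrc1, the mannose receptor, had the most regions, 21, of which 12 were tested and 10 were below 0 (median -0.16). Mrc1_11, in an intron 42.9 kb into the gene (chr2:14272009-14272553), had 86, 86, 68 and 65 tags in KO and 111, 159, 128 and 122 in WT. The groups were separate, KO had 31.8% fewer tags, and the call held under all 16 alternatives (-0.55, SE 0.112, adjusted p = 0.000411). Mrc1_18, in an intron 95.5 kb into the gene (chr2:14324679-14325085), had 31, 20, 16 and 13 tags in KO and 29, 33, 43 and 35 in WT. KO 1_2 lay inside the WT range, and the difference (-0.64, SE 0.208, adjusted p = 0.033) did not pass without KO 1_3, KO 2, KO 3, WT 3 or WT 4 (adjusted p from 0.0561 to 0.139). Past the 3′ end, Mrc1_19 had 25, 20, 23 and 19 tags in KO and 39, 54, 30 and 27 in WT, with no overlap, and differed by -0.52 (adjusted p = 0.0602). Mrc1_4, which spans the start of the gene (chr2:14229083-14229515), had 58, 71, 54 and 47 tags in KO and 68, 97, 81 and 62 in WT. The groups overlapped and the difference was -0.20 (SE 0.133, adjusted p = 0.352).

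Vldlr and Cd163 had little or no accessible chromatin by this measure. No library had a peak anywhere in the Vldlr gene body or its 20 kb flanks, 77.7 kb in all. Cd163 had 2 regions, none of them in all 8 libraries and none at its start. The nearest to the start, Cd163_1 (chr6:124297220-124297684, 7.16 kb upstream), had 27, 28, 18 and 28 tags in KO and 19, 20 and 19 in WT 1_2, 1_3 and 3, with no peak in WT 4. It therefore had no test with all libraries. Without WT 4 it entered the fit and was higher in KO (0.66, SE 0.215, adjusted p = 0.0325). With all 8 libraries and the missing peak set to the smallest summit of WT 4 it did not pass (0.91, SE 0.273, adjusted p = 0.0669). Cd163_2, in an intron, had a peak in 3 libraries of each genotype, with 12 to 20 tags in KO and 12 to 14 in WT.

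Starts and distal regions can be set side by side. The regions at or nearest the starts of Marco, Lpl, Scarb1, Olr1 and Mrc1 were below 0 at -0.08, -0.26, -0.20, -0.28 and -0.20, but none passed. Cd36_5 passed as lower and Msr1_5 as higher. The other 12 regions that passed were intronic or intergenic and more than 1 kb from any annotated start, and whether starts and distal regions differed in response was not tested. Like Olr1_4, the named regions Mrc1_18, Mrc1_19, Marco_1 and Marco_2 have their nearest annotated start at another gene. For Mrc1_18 that start is 20.8 kb away, against 95.5 kb for Mrc1. Their genes are not assigned by these data.

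Of the 96 regions, 28 did not have a peak in all 8 libraries. Of these, 18 had a peak in more WT than KO libraries, 7 in more KO than WT libraries and 3 in equal numbers. Most such regions of the whole genome also had more WT libraries. There the counts were 19443 with more WT, 10257 with more KO and 5225 with equal numbers. The number of regions with a peak was 79, 77, 75 and 80 in KO 1_2, 1_3, 2 and 3, and 81, 85, 82 and 83 in WT 1_2, 1_3, 3 and 4. The KO libraries were all below the WT libraries, at 77.8 ± 2.22 against 82.8 ± 1.71 (mean ± SD, n = 4 libraries each), a difference of -5. The whole lists were also mostly shorter in KO, with 60363, 65009, 61078 and 63600 peaks. The WT lists held 65028, 72484, 66174 and 61240 peaks in the same order of libraries. Presence of low peaks depends on list length, and with every list shortened to its 60363 strongest peaks the difference was -1.5.

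**Figure D4:**
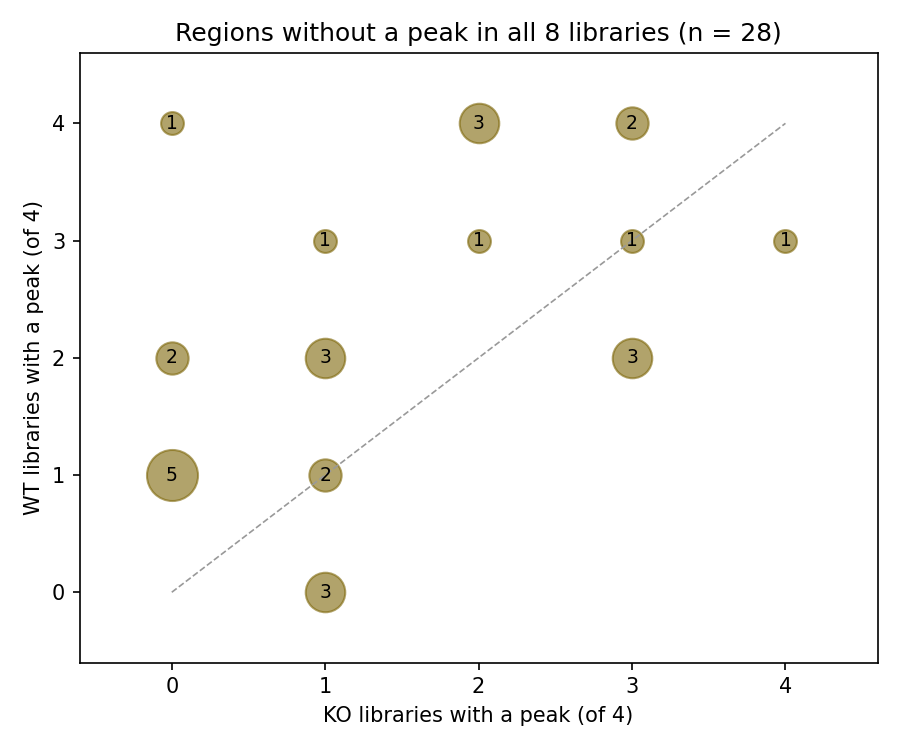
Regions without a peak in all 8 libraries (n = 28) by the number of KO libraries (x axis) and WT libraries (y axis) with a peak, out of 4 each. The number in each circle and its area give the number of regions, and the dashed line marks equal numbers. More regions (18) lie above the line than below it (7), and 1 region, Marco_2, has a peak in 4 WT and no KO libraries. Over the whole genome 19443 regions lie above the line and 10257 below it.

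The same windows were read at 17 other genes of scavenging and lipoprotein handling, of which 16 had a region and Scara3 had none. Among their 98 tested regions, 6 were lower in KO (6.12%) and 2 higher (2.04%), with 49% below 0 and a median of 0.016. The lower regions were 3 of 7 at Angptl4, an inhibitor of lipoprotein lipase, and 1 each at Cd5l, Scarb2 and Lrp1. The higher regions were 1 each at Stab1 and Lrp8. The largest difference among these genes was -0.88 at Cd5l, whose product is a secreted scavenger protein of macrophages (adjusted p = 0.00216). None of the 8 regions tested at Cd68, 7 at Cxcl16, 6 at Slc27a1 or 4 at Slc27a4 passed.

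Motif matches within 100 bases of the summit were counted in the 88 regions found in 2 or more libraries. DR1 was matched in 5 of the 88 (5.68%), against 4.14% of all 72711 regions. Of those 5, Marco_10, Cd36_5 and Scarb1_13 were lower in KO, as printed above, which is 3 of the 13 lower regions (23.1%). These 3 calls passed under 7, 9 and 10 of 16 alternatives and were lost with libraries scaled by background tags. The lower regions that passed under every alternative they could enter had no DR1 match. The other DR1 matches were in Mrc1_19 and in Olr1_12, which had a peak in 6 libraries. All 5 matches carried 2 mismatches. AP-1 was matched in 13 of the 88 (14.8%) and in 4 of the 13 lower regions (30.8%), Marco_12, Lpl_4, Mrc1_11 and Mrc1_18, against 11.9% of all regions. In Mrc1_18 the match lay 82 bases from the summit. PU.1 was matched in 9 of the 88 (10.2%) and in none of the 13, against 10.7% of all. DR4 was matched in none of the 88, against 2.63% of all. Base composition of the 88 regions was slightly lower in GC than that of all regions (medians of 47% and 50.7%). The 13 lower regions were chosen by their values and all had a peak in all 8 libraries. The shares over all 72711 regions include regions in as few as 2 libraries, so the sets are not alike. These shares are therefore a description, and a match does not show binding.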

How the data were processed

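ATAC-seq peak lists of 8 libraries were analysed, grouped by the genotype and replicate in their titles. As the methods of the study describe, the authors used Cutadapt for trimming and Bowtie2 for alignment to mm10, discarded duplicates, extended reads to 200 bp around the cut and called peaks per library with MACS3 at a q-value of 0.05. Each deposited list holds a fold enrichment ratio over local background, −log10 p-values, −log10 q-values, a rounded display score (not used) and the summit. A deeper library reaches the threshold with a weaker enrichment, so presence depends on depth. The lists hold no read counts, so the edgeR test of the study was not fitted.

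Whole tags were worked back from the fold and p-value of every peak (100% within a relative error of 1e-05). The lists were not made for comparing these tags between libraries. Gene windows were GENCODE M21 gene bodies with 20 kb on each side, sequence came from the RefSeq GRCm38 genome, and all peaks lay within its chromosomes. Tags were compared with limma 3.58.1 in R 4.3.3 (trended variance, pseudocount 0.5), which was tested on simulated counts. A region missing from 1 or more libraries was not tested. A permutation test of regions per library had been planned, but those values are given without a p because the genes were chosen as a set. Regions named were those at the start of each gene, those that passed, those in every library of 1 genotype and at most 1 of the other, and the largest difference per gene. Further regions, among them Marco_1, Marco_4, Marco_9, Msr1_6 to Msr1_8, Cd36_6, Cd36_8, Mrc1_19, Olr1_12 and Cd163_2, were named after their values were seen. The genes, lists and tests were chosen with earlier results of these data known. From the list of other genes, 1 gene is not reported here. The sex of the mice is not given per library.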

Additional observations from a re-analysis of the deposited data

Results flagged for a closer look

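At Marco_6, the region over the start of Marco, the 36 tags of WT 4 stood apart from those of the other WT libraries, 57, 75 and 61. On the scaled log2 values the gap to the nearest library was 0.962 of the range of the group, above Dixon's critical value for 4 samples. This was 1 of 44 groups of 4 libraries examined, and chance flags about 1 in 20.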

How the results depend on the processing

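The count of 13 lower regions fell to 8 when libraries were scaled by background tags. It fell to 7, 6 of the 13 and Marco_2, when regions in at least 2 libraries were fitted with missing peaks set to the smallest summit of the library. The count of higher regions was 0 in both of these settings and 0 with the replicate block. Leaving out each library gave 8 to 14 lower and 0 to 1 higher regions, and 8 lower without KO 3. Without WT 4 the higher region was Cd163_1, and Msr1_5 did not pass. Genome-wide these fits called 2649 to 3216 regions lower and 1765 to 3192 higher, of 47591 to 48609 tested. Quantile normalisation, a pseudocount of 5, merging at 100 shared bases, summits within 200 bases, windows of 10 or 50 kb, and 1_2 and 1_3 counted as 1 sample kept the lower count within 1.5 times. The difference in regions with a peak per library was -1.5 with lists of equal length, -7.25 with windows of 50 kb and -5.75 to -4.08 without each library, and 2 regions in place of 1 were in every library of 1 genotype and none of the other with windows of 50 kb. Leaving out each library gave 1 throughout. Libraries of the 2 genotypes with the same replicate number deviated together weakly (r from 0.037 to 0.116 in 3 pairs, each library correlating best with its own number). The main fit did not treat them as pairs, as the methods of the study state no block. Whether they share a batch was not tested. KO 2 and WT 4 have no partner, so with the replicate block the difference rests on the 6 libraries that do. In that fit 12 regions were lower, 9 of the 13 and also Cd36_15 (-0.61, adjusted p = 0.0418), Lpl_2 (-0.28, adjusted p = 0.0282) and Mrc1_19. Genome-wide it called 3283 regions lower and 3600 higher of 47499, so higher calls were the more frequent there. Cd36_5, Lpl_3, Marco_10, Mrc1_18 and Msr1_5 did not pass, and the presence difference was -4 over the 3 pairs. Of 318 values of named regions under the alternatives, 260 kept their side of the threshold, 47 lost it, 11 gained it and none changed direction where called.

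Marco_11, Marco_12, Mrc1_11, Scarb1_11 and Lpl_5 passed under all 16 alternatives, Lpl_4 under all 15 it could enter, Olr1_4 under 15 of 16 and Msr1_2 under 14 of 16. Cd36_5, Lpl_3, Marco_10, Mrc1_18, Msr1_5 and Scarb1_13 passed under 7 to 10. The cause of lost calls was not tested. With 4 libraries a side and 6 to 9 tags in the smallest summits, small changes at low peaks were not detectable, and regions absent from some libraries had no test.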
